A study of Mus musculus with 2 samples.

Results

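The genes of the Wnt pathway were examined in dorsal skin of mouse pups that lack Mpzl3, which encodes a membrane protein related to myelin protein zero. Members were chosen by name: all genes with symbols of the Wnt, Fzd, Sfrp and Dkk families that carry a number, together with Axin1, Axin2, Lef1, Tcf7, Lgr5, Ctnnb1, Lrp5 and Lrp6. The arrays named 43 such genes through 62 probes, out of 18855 genes and 31337 probes with 1 gene name, and 0 probes named Tcf7. The data were 2 arrays with 2 dyes each. One compared skin of Mpzl3 null pups with skin of wild-type littermates at 9 days of age (P9), and the other made the same comparison at 1 day (P1). Null RNA carried Cy5 and wild-type RNA Cy3 on both, so dye and genotype cannot be told apart. The labels do not give the strain, the deleted part of the gene or whether a channel held 1 pup or several.

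Wnt proteins are secreted lipid-modified ligands that bind Frizzled receptors and the co-receptors Lrp5 and Lrp6. Binding stops a complex built on Axin from marking β-catenin (Ctnnb1) for destruction, and β-catenin then activates target genes with the factors Lef1 and Tcf7. In skin the pathway is known for the formation of hair placodes, for the growth phase of the hair cycle and for the signalling of the dermal papilla, the cluster of mesenchymal cells at the base of the follicle. Axin2 is both a target of the pathway and an inhibitor of it, and is widely used as its readout.

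Each value is the log2 ratio of the null over the wild-type signal within 1 array, as deposited by the authors, so a positive value means a higher signal in the null channel. A value of a gene is the mean of its probes. Base 2 was inferred from the size of the values, and folds rest on it. There is 1 array per age, so no difference has a replicate check, no p-value is given, and the number of arrays limits the precision. Over all genes with at least 2 probes, the SD between probes of a gene was 0.36 at P9 and 0.36 at P1, a spread of 1.28-fold that covers probes and not animals. A call of higher or lower was made when the mean over probes reached 2-fold and no probe of the gene had the other sign. Ratios hold no level, so which members the skin expressed and whether its defining markers were present could not be read from them, and less RNA per cell cannot be told apart from fewer cells. At P9 the channels also differed in sex-linked transcripts, with Xist at 3.67 ± 1.05 (SD, 4 probes) and the Y-linked gene Eif2s3y at −3.98. At P1 Xist was at −1.03 ± 0.77 (SD, 4 probes), on the other side of 0, and Eif2s3y was blank. Matched sex cannot be taken for granted at P1 either. The part of these differences in the results was not tested. Mpzl3 itself, read by 1 probe that may or may not lie in the deleted part, was at 0.20 at P9 and −0.21 at P1, which leaves the genotype labels unchecked.

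The promoters of 4 members are printed below. They include Axin2, lower at both ages, Wnt1, the highest ligand at P9, and Sfrp2, the inhibitor with opposite signs at the 2 ages. Dkk1, which was not called, was added as the member with the most matches to the motif searched. The sequences are the 250 bases before the start site in RefSeq on GRCm38.p6, at chr11:108920099-108920348 on the + strand for Axin2, chr15:98789607-98789856 on the + strand for Wnt1, chr3:83766071-83766320 on the + strand for Sfrp2 and chr19:30549497-30549746 on the − strand for Dkk1. Capitals mark matches to the core of the Lef and Tcf motif.
Axin2: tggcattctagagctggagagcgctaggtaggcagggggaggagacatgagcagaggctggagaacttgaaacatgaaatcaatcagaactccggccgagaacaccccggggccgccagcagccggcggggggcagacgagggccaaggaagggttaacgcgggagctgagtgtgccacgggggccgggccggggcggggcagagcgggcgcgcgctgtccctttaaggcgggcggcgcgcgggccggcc
Wnt1: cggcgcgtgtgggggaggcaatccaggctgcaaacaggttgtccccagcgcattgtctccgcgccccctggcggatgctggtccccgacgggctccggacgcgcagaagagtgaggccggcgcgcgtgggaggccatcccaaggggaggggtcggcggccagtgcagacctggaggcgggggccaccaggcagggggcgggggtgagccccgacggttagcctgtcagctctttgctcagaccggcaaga
Sfrp2: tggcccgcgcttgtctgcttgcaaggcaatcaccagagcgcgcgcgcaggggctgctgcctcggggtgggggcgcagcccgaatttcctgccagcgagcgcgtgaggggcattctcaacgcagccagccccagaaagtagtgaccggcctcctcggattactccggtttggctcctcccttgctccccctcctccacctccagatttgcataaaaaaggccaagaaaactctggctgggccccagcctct
Dkk1: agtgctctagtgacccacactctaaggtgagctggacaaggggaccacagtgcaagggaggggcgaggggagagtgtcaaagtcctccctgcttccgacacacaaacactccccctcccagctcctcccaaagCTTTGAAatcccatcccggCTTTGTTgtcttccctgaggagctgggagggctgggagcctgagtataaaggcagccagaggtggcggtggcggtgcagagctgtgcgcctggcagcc
The motif searched on both strands was CTTTG followed by AA, AT, TA or TT, and 1 match may overlap another. They were found in 5 of the 28 members with a promoter in the table, or 17.9%, and in 16.8% of all 27025 genes with one. Dkk1 held 2 matches, on its own strand at 117 and 98 bases before the start, a number reached by 1.43% of all windows. It was picked for having the most matches among the 35 member windows, so that share is no test of its count. The other members with a match were Fzd7, Lef1, Wnt11 and Wnt5b. These letters were not in the window of Axin2, whose GC content was 69.2%, nor in those of Wnt1 (71.6%) and Sfrp2 (63.6%). A match describes the letters only, and so does its absence.

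Axin2 was the member that stood out at both ages. Its log2 ratio was −1.56 at P9 and −1.23 at P1, which is 2.95-fold lower in the null channel at P9 and 2.35-fold lower at P1. Both values lay beyond the spread between probes of a gene, but Axin2 has 1 probe and no second reading. Counted from the lowest, it ranked 8 of 18269 genes at P9 and 83 of 17233 genes at P1. It was the 1 member called lower at either age, of 43 measured at P9 and 42 at P1. Among all genes 0.465% were called lower at P9 and 1.17% at P1, and 0.264% at both ages. On centring each array on its median, the genes called higher and lower at P1 numbered 236 and 264, against 296 and 201 as deposited. With the arrays also scaled to 1 spread, they numbered 559 and 202 at P9, against 409 and 85 as deposited, and 147 and 139 at P1. Of the 44 genes called lower at both ages, 35 were read by 1 probe on each array, or 79.5%. Among all genes, 10534 of 18269 were read by 1 probe at P9 and 9791 of 17233 at P1. No member was called higher, against 2.24% of all genes at P9 and 1.72% at P1. The members nearest to 2-fold without reaching it were Sfrp2 at P9, at −0.69, and Wnt7a at P1, at 0.70.

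**Figure D1:**
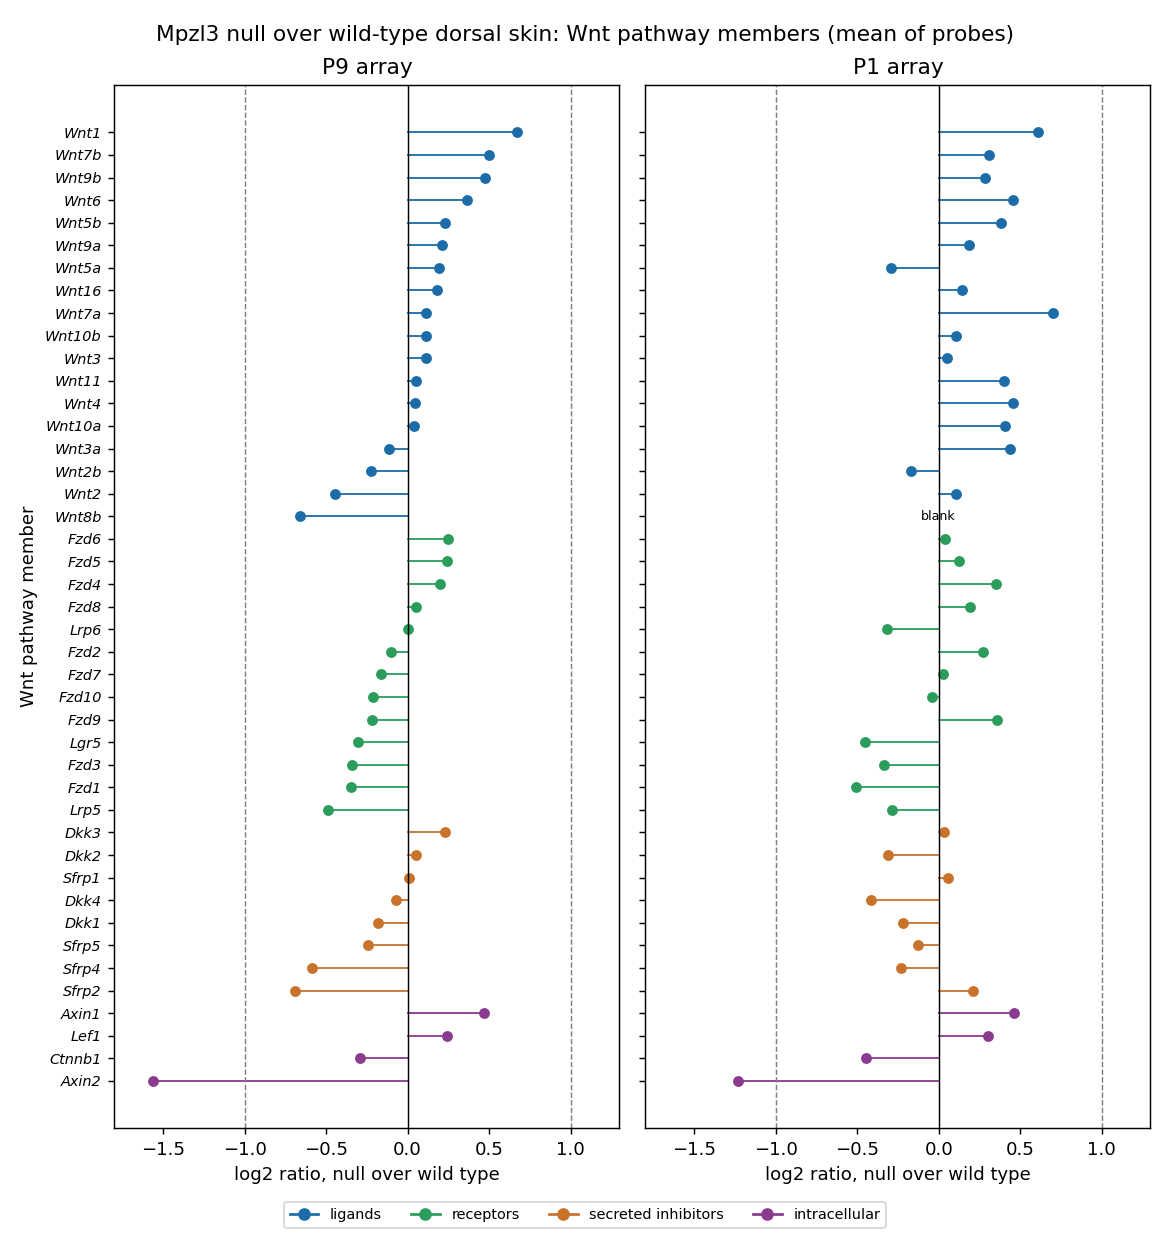
Log2 ratio of null over wild type (x axis) for each of the 43 members (y axis, grouped and coloured by role, in order of the P9 value), with the P9 array on the left and the P1 array on the right. Points are means of a gene's probes, dashed lines mark 2-fold, and "blank" marks a gene with no value. Axin2, at −1.56 and −1.23, is the 1 member past a dashed line, and most ligands lie right of 0 at both ages.

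Axin1, the constitutive scaffold of the same destruction complex, had a ratio on the other side of 0. It was at 0.47 at P9 and 0.46 at P1, or 1.38-fold higher at both ages, from 1 probe. Axin2 and Axin1 were thus read in opposite directions on each array. The difference between the paralogs has no replicate check.

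Ctnnb1 and Lef1 were read by 3 probes each, and their probes did not agree. For Ctnnb1, 1 probe was at −1.19 at P9 and −1.05 at P1. The other probes of Ctnnb1 were at 0.08 and 0.23 at P9 and at −0.35 and 0.07 at P1. By the low probe alone β-catenin RNA would be 2.28-fold lower at P9 and 2.07-fold lower at P1, whereas the mean of the gene was −0.29 ± 0.78 at P9 and −0.45 ± 0.56 at P1 (SD, 3 probes). The gene was not called, and the median of its probes at P9 was 0.08, on the other side of 0. The low probe and the probe at 0.08 are both tied to the same kind of record, a RefSeq transcript, and the remaining one to another sequence. Lef1, a DNA-binding partner of β-catenin that is known for its expression in hair matrix and dermal papilla, averaged 0.24 ± 0.39 at P9 (SD, 3 probes) and 0.31 ± 0.59 at P1 (SD, 2 probes, the third being blank). Its RefSeq probe was at 0.59 at P9 and 0.72 at P1, while another stayed at −0.18 and −0.11.

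Ligands were mostly higher in the null channel, each by a small amount. Of 18 measured at P9, 14 lay above 0 with a median of 0.11, and of 17 measured at P1, 15 lay above 0 with a median of 0.31. Among all genes 53.4% lay above 0 at P9 and 55.8% at P1, with medians of 0.02 and 0.06. After centring each array on its own median, 14 ligands remained above 0 at each age, and their medians were 0.088 at P9 and 0.24 at P1. Of the 17 ligands with a value at both ages, 13 were above 0 at both and 1, Wnt2b, was below 0 at both.

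Wnt1, a ligand of the β-catenin branch that is best known from the developing brain, was at 0.67 at P9 and 0.61 at P1. It was 1.59-fold and 1.53-fold higher, and was the 1 member past 1.5-fold and higher at both ages, where 3.23% of all genes met the same rule. That status at P1 was lost on centring, at 0.55, and on centring and scaling, at 0.47. Wnt7a was at 0.11 at P9 but 0.70 at P1, a 1.63-fold ratio. Wnt6, which has 2 probes, was at 0.36 ± 0.0035 at P9 and 0.46 ± 0.18 at P1 (SD, 2 probes), with each probe above 0 at both ages.

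Other ligands known from the epidermis and hair follicle had values within 1.5-fold. Wnt7b was at 0.50 at P9 and 0.31 at P1, and Wnt9b at 0.47 and 0.28. Wnt10b, linked to the growth phase of the hair cycle, was at 0.11 at both ages, whereas Wnt10a, needed for skin appendages, was at 0.04 at P9 and 0.41 at P1. Wnt4 was likewise near 0 at P9, at 0.05, and at 0.46 at P1. Wnt3, a follicle ligand, averaged 0.11 ± 0.74 at P9 and 0.05 ± 0.83 at P1 (SD, 2 probes), because its probes stood on either side of 0. They were at 0.63 and −0.41 at P9 and at 0.63 and −0.54 at P1, so the gene's direction depends on the probe.

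The ligands below 0 were few. Wnt8b was at −0.66 at P9, 1.58-fold lower, and blank at P1. Wnt2 was at −0.44 at P9 and 0.10 at P1, Wnt3a at −0.12 and 0.44, and Wnt2b at −0.22 and −0.17. Wnt5a, which signals largely without β-catenin and is made in the dermal papilla, was the 1 ligand above 0 at P9 and below it at P1, at 0.19 and −0.29. Its relative Wnt5b was at 0.23 ± 0.09 and 0.38 ± 0.38 (SD, 2 probes). Wnt9a was at 0.21 at P9 (1 probe) and 0.19 ± 0.21 at P1 (SD, 2 probes), Wnt16 at 0.18 and 0.14 and Wnt11 at 0.05 and 0.40, so none of these passed 1.5-fold.

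**Figure D2:**
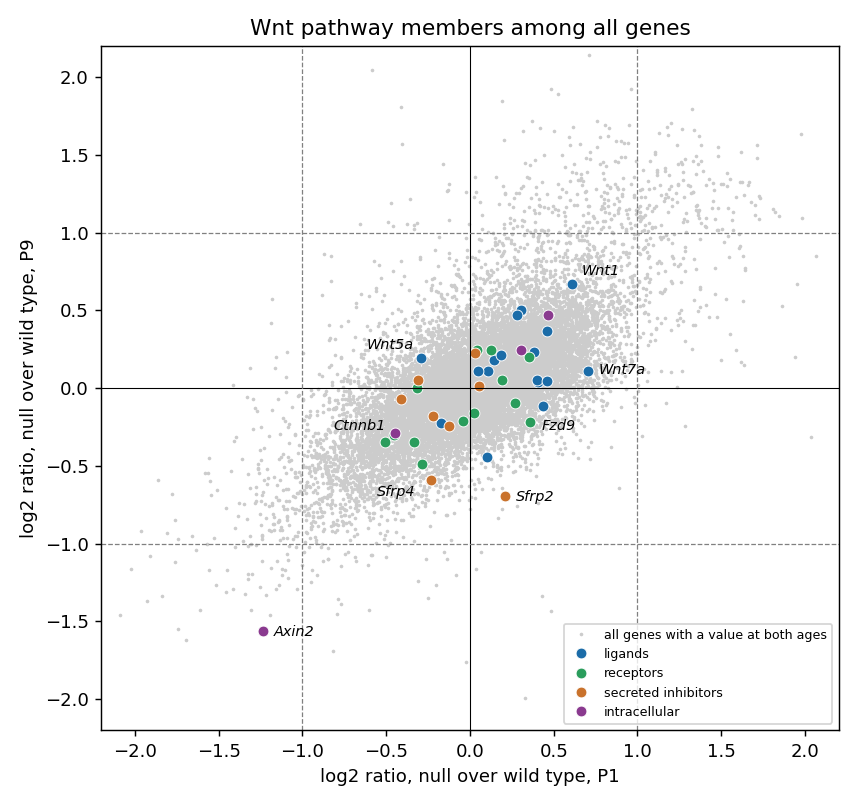
Log2 ratio of null over wild type at P9 (y axis) against P1 (x axis) for the genes with a value on both arrays (grey) and the Wnt pathway members (coloured by role); dashed lines mark 2-fold, and the few genes beyond 2.2 on either axis are outside the frame. Axin2 stands apart at the lower left, the ligands lie mostly at the upper right and Sfrp2 at the lower right.

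Receptors were spread around 0 and none passed 1.5-fold as deposited. After centring and scaling, Lrp5 passed it at P9, at −0.62. At P9, 4 of 13 lay above 0, 8 below and 1 at 0, with a median of −0.16. At P1, 7 of 13 lay above 0 with a median of 0.02, which was −0.037 after centring. The 10 Frizzled genes, which encode the receptors that bind Wnt directly, had a median of −0.13 at P9 and 0.08 at P1.

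Fzd6, known for the orientation of hair, was the highest receptor at P9, at 0.25, and was at 0.04 at P1. Fzd9 was the highest at P1, at 0.36, and was below 0 at P9, at −0.22. Fzd1 was below 0 at both ages, at −0.35 at P9 and −0.51 at P1, the lowest receptor at P1. Fzd3, a receptor of planar polarity read by 3 probes, averaged −0.34 ± 0.47 at P9 and −0.33 ± 0.41 at P1 (SD, 3 probes). Its mean was set by 1 probe at −0.87 at P9 and −0.81 at P1, while the others lay between −0.19 and 0.03 at P9 and at −0.06 and −0.13 at P1.

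Of the remaining Frizzled genes, Fzd4, a receptor known from blood vessels, was above 0 at both ages, at 0.20 at P9 and 0.35 at P1. Fzd5 was too, at 0.24 ± 0.37 at P9 and 0.12 ± 0.04 at P1 (SD, 2 probes). Fzd2 was at −0.10 ± 0.19 at P9 and 0.27 ± 0.11 at P1, Fzd7 at −0.16 ± 0.31 and 0.02 ± 0.04, and Fzd10 at −0.21 ± 0.34 and −0.04 ± 0.33 (SD, 2 probes each). Of these genes, Fzd7 and Fzd10 had probes on either side of 0 at both ages, and Fzd2 and Fzd5 at P9 only.

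The co-receptors had low or mixed values. Lrp5 was the lowest receptor at P9, at −0.49, and was at −0.29 at P1. Lrp6 had probes at 0.28 and −0.28 at P9, with a mean of 0, and averaged −0.32 ± 0.23 at P1 (SD, 2 probes). Lgr5, a receptor for R-spondins and itself a target gene that marks cycling follicle stem cells, was at −0.30 ± 0.15 at P9 and −0.45 ± 0.53 at P1 (SD, 2 probes). All probes of Lgr5 were below 0, from −0.41 to −0.20 at P9 and from −0.83 to −0.08 at P1.

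The secreted inhibitors overlapped between their families at both ages. Sfrp proteins bind Wnt outside the cell through a Frizzled-like domain. Sfrp2 was at −0.69 at P9, 1.61-fold lower, and at 0.21 at P1. Sfrp4 was at −0.59 at P9, just past 1.5-fold, and at −0.23 at P1. Sfrp5 was at −0.25 and −0.13. Sfrp1 averaged 0.01 ± 0.41 at P9 and 0.05 ± 0.75 at P1 (SD, 2 probes), with probes at 0.30 and −0.28 at P9 and at 0.59 and −0.48 at P1. The median of the 4 Sfrp genes was −0.42 at P9 and −0.036 at P1, and each was lower at P9 than at P1. That difference was −0.043 for Sfrp1, −0.119 for Sfrp5 and −0.355 for Sfrp4, each within the spread between probes. Only that of Sfrp2, at −0.90 from 1 probe, was larger.

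Dkk1 blocks the co-receptors Lrp5 and Lrp6, and Dkk4 is an inhibitor made in the hair placode. The median of the 4 Dkk genes was −0.01 at P9 and −0.27 at P1, and none passed 1.5-fold. Dkk1, whose promoter is printed above, was at −0.18 ± 0.06 at P9 and −0.22 ± 0.27 at P1 (SD, 2 probes). Dkk4 was at −0.07 at P9 and −0.41 at P1, the lowest inhibitor at P1. Dkk2 was at 0.05 and −0.31, and Dkk3, the highest inhibitor at P9, at 0.23 and 0.03. All 4 were thus higher at P9 than at P1, by 0.04 to 0.36 on the log2 scale, which is at most the spread between probes. For Dkk1 the order of the ages turned with both arrays centred and scaled, at a difference of −0.0031.

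At 1.5-fold, 1 member was higher and 4 were lower at P9, and 2 were higher and 1 lower at P1. The 2 higher at P1, Wnt1 and Wnt7a, became 1 after centring and 0 after centring and scaling. The 4 lower at P9 became 5 after centring and scaling, with the addition of Lrp5. The background for P9 was 6.17% of genes higher and 3.30% lower, so that the members gave 2.33% and 9.30%. For P1 the background was 9.08% higher and 6.92% lower, against 4.76% and 2.38% of members. The 4 lower members at P9 were Axin2, Sfrp2, Wnt8b and Sfrp4, each read by 1 probe.

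**Figure D3:**
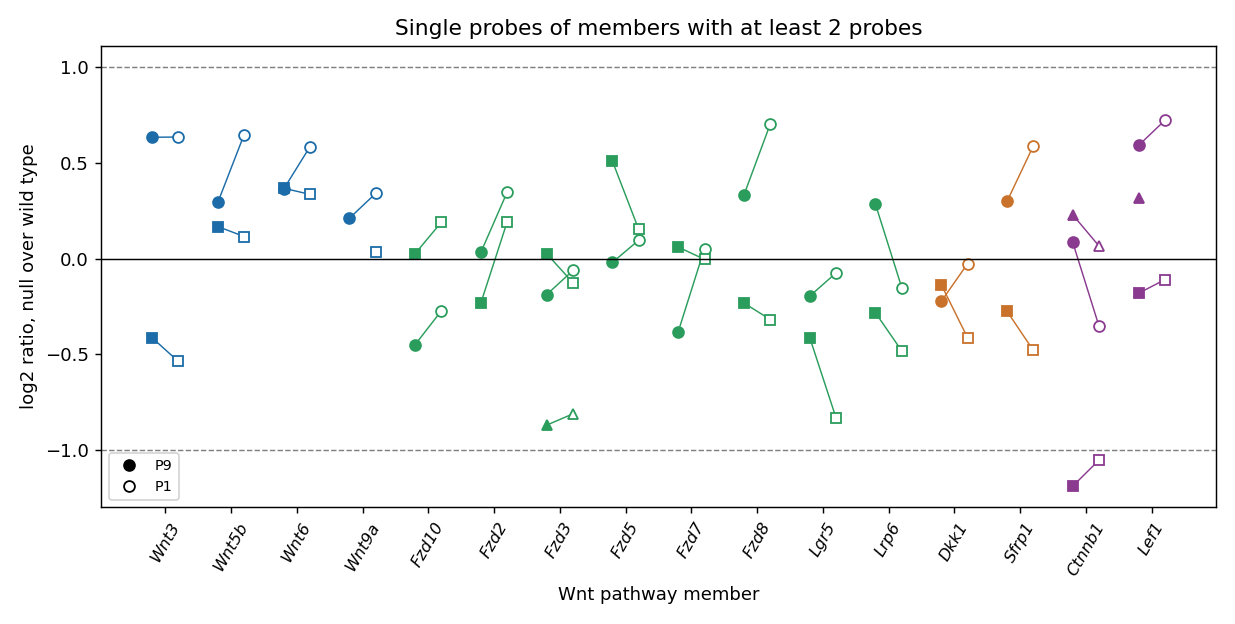
Log2 ratio of null over wild type (y axis) of each single probe of the members with at least 2 probes (x axis, coloured by role); filled marks are P9, open marks P1, and a line joins the same probe at both ages. For Ctnnb1, Wnt3, Fzd8 and Sfrp1 the probes of 1 gene lie far apart and keep their order, with the low Ctnnb1 probe at −1.19 and −1.05.

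Probes of 1 member often disagreed in sign. This was so for 11 of 15 members with at least 2 probes at P9, against 51.5% of all such genes, and for 7 of 16 at P1, against 40.6%. The pooled SD between probes was 0.43 over members at P9 and 0.46 at P1. The probe that read highest was the same at both ages in 11 of the 15 members with at least 2 probes valued on both arrays, or 73.3%, and in 68.1% of all such genes. Fzd8 was an example, with 1 probe at 0.33 at P9 and 0.70 at P1 and the other at −0.23 and −0.32. Probe names fall into series A51 and A52. Axin2 and the low probes of Ctnnb1 and Fzd3 are of series A52, which had medians over all genes of −0.009 at P9 and −0.053 at P1, against 0.028 and 0.083 for series A51. In series A52, 1.10% of probes were 2-fold lower at P9 and 3.11% at P1, against 0.855% and 1.65% in series A51. The part of the probe series in these results was not tested.

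Across the ages, 33 of the 42 members with a value on both arrays kept their sign, or 78.6%, against 74.3% of all 16647 genes. Both signs were positive in 21 members and negative in 12. Of the 8 with opposite signs, 6 were below 0 at P9 and above 0 at P1 as deposited. After centring there were 10, of which 5 were below 0 at P9, so the tally rests on values near 0. The median difference of P9 minus P1 was −0.05 over members and −0.01 over all genes. The difference has no replicate check at either age, and at P9 sex and genotype cannot be told apart.

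Sfrp2 had the largest difference in size among members, at −0.90, followed by Wnt7a at −0.59, Fzd9 at −0.58, Wnt3a at −0.55 and Wnt2 at −0.55. In the other direction Wnt5a differed by 0.49, Dkk2 by 0.36 and Dkk4 by 0.34. For Axin2 the difference was −0.33 as deposited, within the spread between probes, but −0.80 with both arrays centred and scaled, which was then 2nd in size among members. Each of these genes was read by 1 probe.

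**Figure D4:**
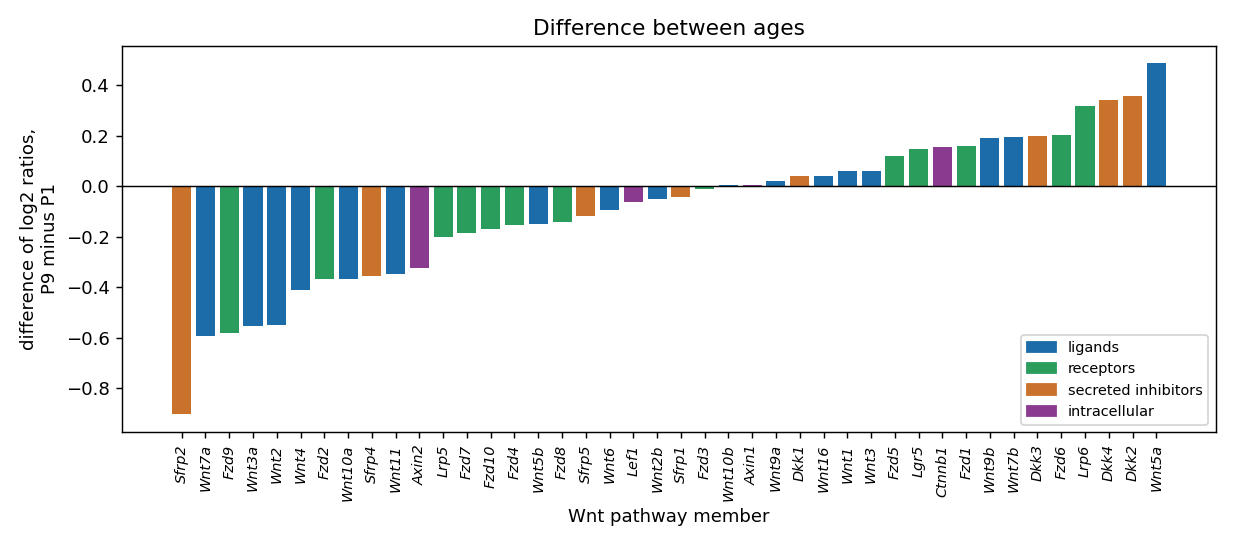
Difference between the log2 ratios of the 2 ages, P9 minus P1 (y axis), for each of the 42 members with a value on both arrays (x axis, in order of the difference, coloured by role). Sfrp2 is lowest at −0.90 and Wnt5a highest at 0.49; Axin2 lies at −0.33.

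Other genes of the pathway were taken from 3 further lists, and none of them passed 2-fold at either age. Of 27 genes of Wnt secretion and extracellular partners, 13 lay above 0 at P9 and 13 at P1, with medians of −0.02 and −0.08. Wls, the carrier that takes Wnt proteins to the cell surface, was at −0.66 ± 0.23 at P9 and −0.70 ± 0.21 at P1 (SD, 3 probes). All 3 probes of Wls were below 0 at both ages, from −0.82 to −0.40 at P9 and from −0.91 to −0.49 at P1, or 1.57-fold and 1.63-fold lower by the mean. Porcn, the enzyme that attaches the lipid to Wnt, was on the other side, at 0.26 and 0.64.

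Frzb, a secreted relative of the Sfrp proteins, was the lowest of that list at P9. It was at −0.84 at P9, 1.79-fold lower, and at 0.17 at P1, so it had the same signs as Sfrp2. Rspo2, an R-spondin ligand that strengthens Wnt signals, was at −0.74 at P9 and −0.29 at P1. Kremen1, a receptor for Dkk proteins, had the highest mean at P9, at 0.41 ± 1.12 (SD, 2 probes), from probes at 1.20 and −0.38. Notum, an enzyme that removes the lipid from Wnt and a target gene, was the highest at P1, at 0.95, and at 0.33 at P9. Lgr4, a relative of Lgr5, was the lowest at P1, at −0.78 ± 0.12 (SD, 2 probes), and at −0.17 ± 0.57 at P9 (SD, 3 probes). Sostdc1, an inhibitor of Wnt and BMP signals in the follicle, was at −0.57 and −0.72.

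Of 28 measured genes of the intracellular pathway, 17 lay above 0 at P9 and 16 at P1, with a median of 0.07 at P9 and of 0.05 at P1, or −0.0065 at P1 after centring. Dact2, which binds Dishevelled, was the highest at P9, at 0.43 ± 0.48 (SD, 2 probes). The transcription factor Tcf7l1 was the lowest at P9, at −0.47 ± 0.20 (SD, 2 probes). Bcl9l, a coactivator that binds β-catenin, was the highest at P1, at 0.86 and 0.31 at P9. Tle4, a corepressor, was the lowest at P1, at −0.55 and −0.32 ± 0.35 at P9 (SD, 2 probes). Dact3 had no named probe.

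Among 20 further target genes, 9 lay above 0 at P9 and 11 at P1, with medians of −0.10 and 0.10. The median at P1 was 0.0345 after centring. Notum, Znrf3 and Rnf43 were also in the list of secretion and extracellular partners. None of the 20 had a value near that of Axin2. Ccnd1, the cell cycle gene for cyclin D1, was at 0.48 at P9, the highest of the list at that age, and 0.49 at P1. Myc was at 0.39 ± 0.50 and 0.34 ± 0.44 (SD, 3 probes). Twist1, a mesenchymal transcription factor, was the lowest at P9, at −0.66, and at −0.26 at P1. Trps1 was the lowest at P1, at −0.27 ± 0.29, and at −0.38 ± 0.33 at P9 (SD, 3 probes each). Nkd1, an inhibitor induced by the pathway, was at 0.13 ± 0.68 at P9 and 0.19 ± 0.66 at P1 (SD, 2 probes), and its relative Nkd2 was at −0.31 ± 0.09 and −0.03 ± 0.10 (SD, 2 probes). Which of these genes answer to Wnt in pup skin was not measured.

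Many markers of mesenchymal cells were below 0 as well. Of 9 measured dermal papilla markers, 7 were below 0 at each age, with medians of −0.35 at P9 and −0.48 at P1. They included Tbx18 at −0.57 ± 0.39 and −0.75 ± 0.44, Hhip at −0.62 ± 0.27 and −0.48 ± 0.53 (SD, 2 probes), and Sox2 at −0.52 and −0.50. The exceptions were Sox18 at 0.13 and 0.32 and Alx4 at 0.21 and 0.09. Of 10 dermal fibroblast markers, 8 were below 0 at P9 and 6 at P1, with medians of −0.15 and −0.13. Among all genes, 8505 of 18269 were below 0 at P9 and 7600 of 17233 at P1. Col1a2 was called lower at both ages, at −1.20 and −1.12, and Dcn at P1, at −0.45 and −1.56. Above 0 at both ages were Col1a1, at 0.07 ± 0.25 and 0.32 ± 0.37 (SD, 2 probes), and Dpt, at 0.14 and 0.19. Pdgfra and Pdgfrb were above 0 at P1 only, at 0.05 ± 0.21 (SD, 2 probes) and 0.09. These values stand beside those of Axin2, Sfrp2, Sfrp4, Frzb and Twist1. Of those genes, Sfrp2 and Frzb were above 0 at P1, at 0.21 and 0.17. Lef1, also known from the dermal papilla, was above 0 at both ages, at 0.24 and 0.31. Wnt5a, made there too, was at 0.19 at P9 and −0.29 at P1. The part of mesenchymal cells in the Wnt pathway values was not tested.

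Markers of the hair matrix and shaft had medians of 0.35 at P9 and 0.50 at P1. Of 7 measured at P9, 4 were above 0, or 57.1%, close to the 53.4% of all genes, and of 10 at P1, 9 were, against 55.8% of all genes. Krt34, a keratin of the hair shaft, was at 1.01 at P9, at the edge of 2-fold, and at 1.48 at P1. The follicle morphogen Shh was at −0.42 and −0.17. Hoxc13 and Dlx3 were below 0 at P9, at −0.254 and −0.087, and above it at P1, at 0.104 and 0.47. These values stand beside those of the ligands, whose medians were likewise above 0 at both ages. So were the medians of skeletal muscle markers (0.29 and 0.92), Schwann cell markers (0.23 and 0.59) and basal and bulge keratinocyte markers (0.16 and 0.009). The part of hair cells or of these other cells in the ligand values was not tested.

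**Figure D5:**
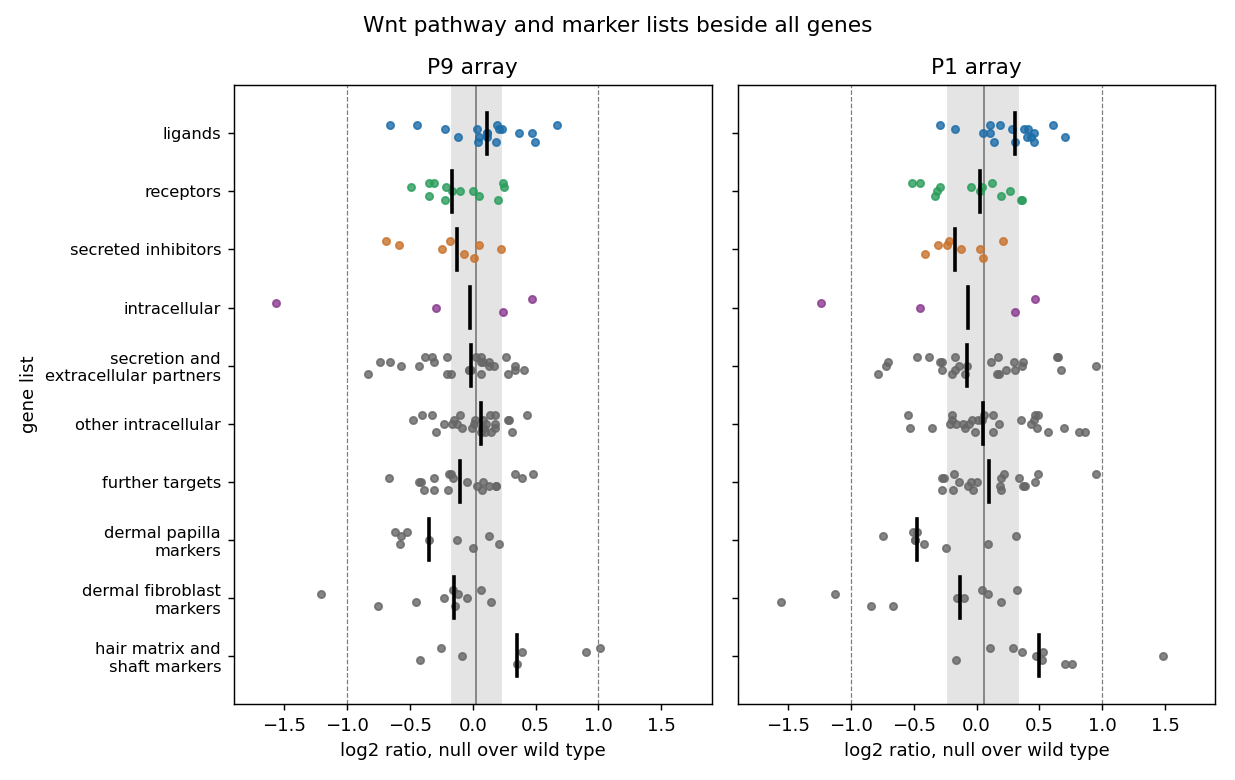
Log2 ratio of null over wild type (x axis) of single genes in the 4 roles of members and in 6 other lists (y axis), with the P9 array on the left and the P1 array on the right. Points are genes, black bars are list medians, the grey band holds the middle 50% of all measured genes around their median, and dashed lines mark 2-fold. The ligand median lies at 0.11 and 0.31, and that of dermal papilla markers at −0.35 and −0.48.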

How the data were processed

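Dorsal skin RNA of Mpzl3 null pups and wild-type littermates was hybridised to Agilent mouse arrays with 2 dyes, per the labels' protocols. The authors deposited log2 ratios of Cy5 over Cy3 in 1 table of 39212 rows; how background and dyes were corrected, and why some cells are blank, is not stated in the labels (not given in the sources used here). Dyes in the labels set the direction. The largest value, 4.898, is 29.8-fold in base 2, 134-fold as a natural logarithm and 79068-fold in base 10, so base 2 is an inference. Blank cells made up 4.71% of the P9 column and 11.3% of the P1 column, and no spot intensity was used.

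Names came from the platform annotation of the probes. Of 31337 probes that named 1 gene, 31210 were matched to RefSeq by Entrez identifier, and 0 symbols changed; 40 probes with several names and 7835 rows without a name here were left out. Gene values were means of probes. With 1 array per age no test was run, and the 2-fold call was set beside the share of all genes called. Members and lists were chosen with earlier results of these data known. Members were named where called, past 1.5-fold with 1 sign or opposite signs at both ages, read by 3 probes, or highest or lowest of their role; the remaining ones were added for completeness of each family. The work ran under Python 3.11.15 with pandas 2.3.3, numpy 2.4.6 and matplotlib 3.10.9. The call rule was tested on simulated data that held independent noise of the size of the spread between probes. Those data held no variation between animals, dyes or sexes, so the test does not cover these. There were 0 columns of unmapped samples. Promoter sequences were taken from RefSeq on GRCm38.p6.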

Additional observations from a re-analysis of the deposited data

Results flagged for a closer look

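Sfrp2, the secreted inhibitor, was at −0.69 at P9 and 0.21 at P1, so the 2 arrays read it in opposite directions, with 1 of them past 1.5-fold. Each value comes from 1 probe and 1 array, and the difference of −0.90 between the ages was not tested. At P9 sex and genotype cannot be told apart.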

How the results depend on the processing

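Axin2 stayed 2-fold lower at both ages under centring and under centring with scaling. The median of probes could not change its value, because Axin2 has 1 probe. Over genes with at least 2 probes, which leaves Axin2 out, 0 members were lower at P9 and 0 at P1. With 1.5-fold in place of 2-fold, 1 member was higher and 4 were lower at P9, and 2 were higher at P1. The count higher at P1 was 1 after centring and 0 after centring and scaling. The count lower at P9 was 5 after centring and scaling. The median of members at P1 was 0.045 after centring and 0.0385 after centring and scaling, against 0.11 as deposited. Annotation symbols as given and genes valued on both arrays left each count as it was and moved each median by less than the SD between probes divided by the square root of the number of members. Mean and median are the same for a gene with 1 or 2 probes. Among single members, the median of probes could thus move only Ctnnb1, Fzd3 and Lef1, which have 3 probes. Of their values, Ctnnb1 at P9 moved by more than the SD between probes, to 0.08, and the others by less. No paired analysis was possible because each age has 1 array and no result comes from a test. Depth is not defined for ratios, and the brightness of spots was not used here.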

Other observations

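Other marker lists give the setting of the Wnt values. Skeletal muscle markers had medians of 0.29 at P9 and 0.92 at P1 over 9 genes, Schwann cell markers of 0.23 and 0.59 over 3, and adipocyte markers of −0.096 and 0.19 over 6. Melanocyte markers had medians of −0.56 and −0.15 over 6 genes, endothelial markers of −0.092 and 0.10 over 6, and leukocyte markers of −0.14 and −0.23 over 5. Basal and bulge keratinocyte markers had medians of 0.16 at P9 over 7 genes and 0.009 at P1 over 10, or −0.052 at P1 after centring; Krt5 and Krt14 were blank at P9 and at 0.66 and 0.24 at P1.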
